A study of Mus musculus with 12 samples.

Results

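The 38 genes described here are general genes of myeloid cells and phagocytes: growth factor receptors, Fc receptors, integrins, pattern recognition receptors, clearance receptors and lysosomal proteins. They were chosen as a list of gene names, and all 38 were measured among the 20352 genes of the arrays. RNA came from hearts of C57BL/6J mice aged 12 weeks, 2 weeks after surgery. In 6 mice the tissue was the border zone of a myocardial infarct, and in 6 it was the corresponding zone after a sham operation. No transgene or drug is named in the labels for either group. Each array held the whole tissue, so that a member's signal mixed all the cells present, and a larger number of cells of a type cannot be told apart from more RNA per cell. The label of heart tissue was borne out by 8 cardiomyocyte markers, whose mean signal in sham hearts lay between 12.38 and 13.92 (log2).

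Macrophages and monocytes are phagocytes that live on the growth factors Csf1 and Il34, which share the receptor Csf1r. They bind antibody-coated particles through Fc receptors, microbial and damaged material through lectin and scavenger receptors, and dying cells through receptors such as Mertk and Axl. After an infarct, resident and recruited phagocytes remove dead cardiomyocytes and take part in scar formation. Most of the genes are used by several kinds of myeloid cell, and some, such as Csf1 and Axl, are also expressed by other cells of the heart.

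Of the 38 genes, 26 (68.4%) rose in infarcted hearts and none fell, in limma at a Benjamini-Hochberg adjusted p under 0.05 over all genes tested. Over all 20352 genes 20.3% were called, 10.1% as higher and 10.2% as lower. The other 12 members did not pass, 9 with a positive and 3 with a negative difference, and 30 members had an unadjusted p under 0.05. The median difference of the 38 was 0.71 on the log2 scale, against -0.04 over all genes. In 22 members (57.9%) every infarcted array lay above every sham array, which held for 5.97% of all genes, and in none did every infarcted array lie below, against 5.29%. Differences of at least 2-fold were called in 6 members, namely Ms4a7, Clec4n, Mpeg1, Fcgr4, Tyrobp and Itgax, against 1.28% of all genes.

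**Figure D1:**
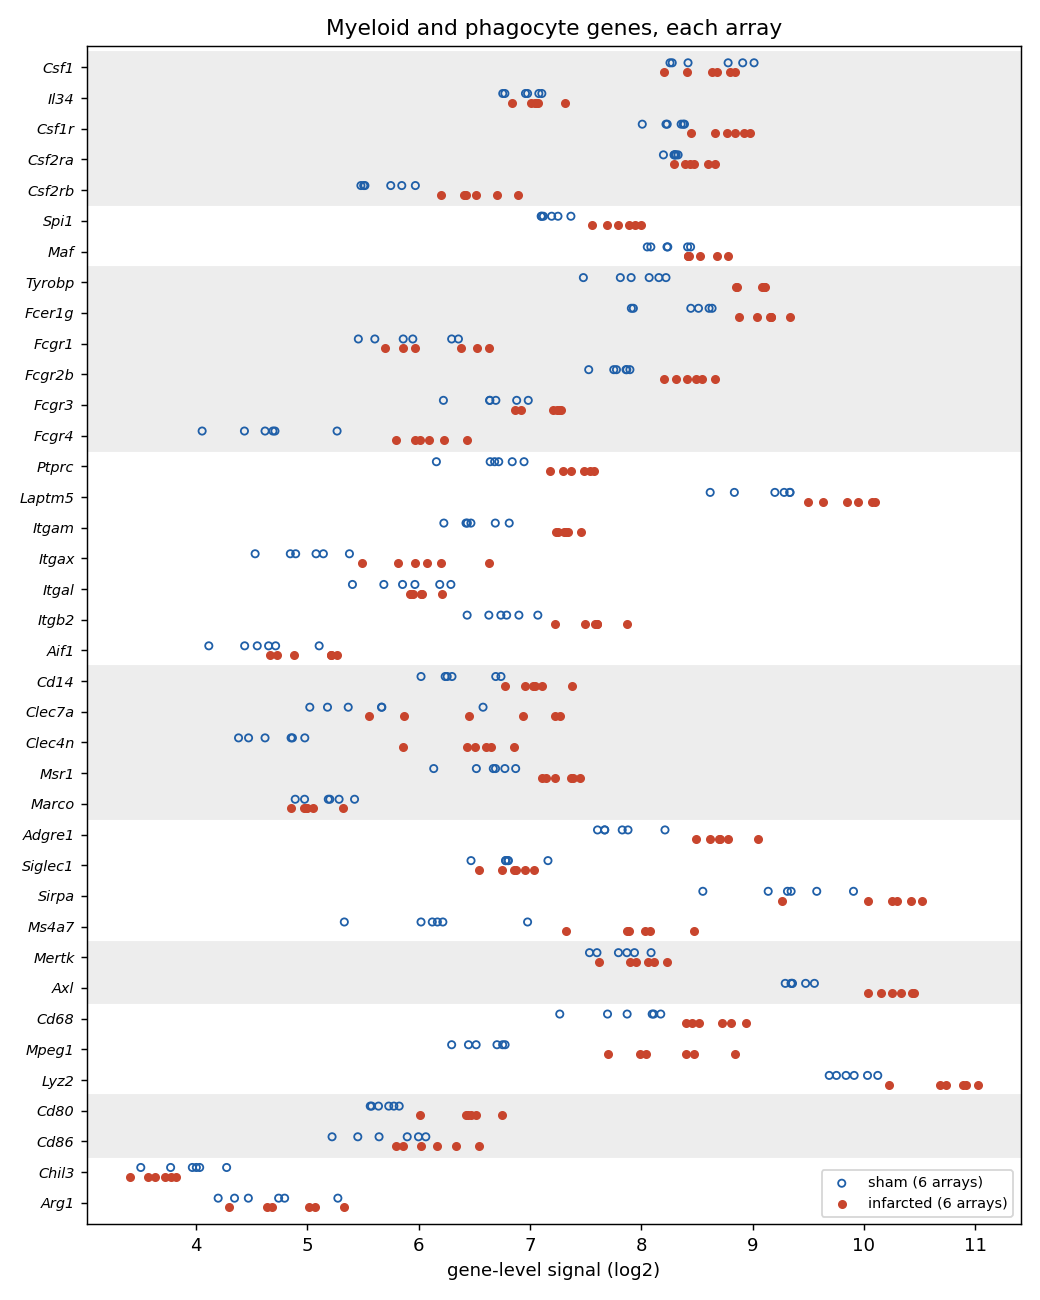
Gene-level signal (log2) of each of the 38 genes on each of the 12 arrays, with 1 point per array, 6 sham and 6 infarcted, and the genes grouped by role. In 22 genes the infarcted points lie wholly to the right of the sham points.

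Promoter sequence (GRCm38.p6) was at hand for 22 of the 38 members. It was examined as windows of 250 bases before to 50 bases after each gene's listed start. The letters GAGGAAG, a core recognised by the myeloid factor PU.1 (the product of the member Spi1), were searched on both strands and were found in 8 of the 22 genes (36.4%) against 15.4% of 27025 genes. They were found in 5 of the 15 members that rose and in 3 of the 7 that did not pass. The letters TGANTCA, a core of the AP-1 family, were found in 4 of the 22 (18.2%) against 8.97% of all genes, all 4 among the members that rose. Such matches describe the sequence and are not evidence of binding. The stretches below show the first set for Fc receptors, for Itgam, Laptm5 and Axl, and then the second set. Each is read 5′ to 3′ on the gene's own strand with the match in capitals (CTTCCTC is GAGGAAG on the opposite strand), followed by what its gene did.
Fcgr1 (chr3:96293989-96294055, minus strand): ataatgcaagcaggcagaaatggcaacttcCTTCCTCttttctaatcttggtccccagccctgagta
Fcgr3 (chr1:171059374-171059440, minus strand): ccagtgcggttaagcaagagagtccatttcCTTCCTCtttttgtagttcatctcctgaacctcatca
Fcgr4 (chr1:171018873-171018939, plus strand): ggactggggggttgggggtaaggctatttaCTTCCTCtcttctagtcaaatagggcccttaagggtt
Itgam (chr7:128062526-128062592, plus strand): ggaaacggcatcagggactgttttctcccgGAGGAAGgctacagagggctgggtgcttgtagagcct
Laptm5 (chr4:130913247-130913313, plus strand): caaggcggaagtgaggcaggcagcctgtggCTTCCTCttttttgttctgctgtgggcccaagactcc
Axl (chr7:25788828-25788894, minus strand): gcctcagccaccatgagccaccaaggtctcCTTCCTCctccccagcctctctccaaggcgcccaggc
Cd68 (chr11:69666158-69666224, minus strand): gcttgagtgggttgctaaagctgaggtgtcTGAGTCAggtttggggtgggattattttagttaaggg
Ms4a7 (chr19:11334740-11334806, minus strand): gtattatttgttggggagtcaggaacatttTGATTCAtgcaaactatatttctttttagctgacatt
Itgax (chr7:128129464-128129530, plus strand): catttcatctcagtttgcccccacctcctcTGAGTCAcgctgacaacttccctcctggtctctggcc
Cd80 (chr16:38458861-38458927, plus strand): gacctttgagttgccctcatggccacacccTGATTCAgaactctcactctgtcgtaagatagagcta

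Among the Fc receptors with a GAGGAAG match, Fcgr3 and Fcgr4 rose and Fcgr1 did not pass. The first matched base lay 7 bases before the nearer of the 2 listed starts of Fcgr3, 23 before that of Fcgr4 and 56 before that of Fcgr1. Itgam, Laptm5 and Axl rose, and the other 2 matches were in Csf2ra and Marco, which did not pass. The members with a TGANTCA match were Cd68, Ms4a7, Itgax and Cd80, whose printed match began between 24 and 81 bases before the start (for Ms4a7, 1 of 2 listed starts).

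The growth factors Csf1 and Il34 did not pass, while their receptor Csf1r and the shared receptor chain Csf2rb rose. Csf1, the main growth factor of macrophages, ranged in sham hearts from 8.26 to 9.01 (median 8.60) and in infarcted hearts from 8.21 to 8.85 (median 8.65). The groups overlapped throughout, and the difference was -0.02 (adjusted p = 0.958). Il34, the other ligand of the same receptor, differed by 0.11 (95% interval -0.08 to 0.30, adjusted p = 0.426). The receptor Csf1r ranged from 8.01 to 8.39 in sham hearts (median 8.29) and from 8.45 to 8.98 in infarcted hearts (median 8.81). All infarcted arrays were above all sham arrays, and Csf1r rose 1.42-fold (95% interval 1.23 to 1.64, adjusted p = 0.00206). The difference of Csf1 was 0.52 below that of Csf1r, which did not pass (exact permutation test, two-sided, adjusted over 69 pairs p = 0.0957), and with the mean over probesets it was 0.25 below (adjusted p = 0.182).

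The receptor of GM-CSF has an alpha chain, Csf2ra, and a beta chain, Csf2rb, which is shared with the receptors of IL-3 and IL-5. Csf2rb ranged from 5.48 to 5.97 in sham hearts (median 5.63) and from 6.20 to 6.90 in infarcted hearts (median 6.47). It rose 1.80-fold (95% interval 1.5 to 2.15, adjusted p = 0.00021), with no overlap. Csf2ra differed by 0.19, short of the threshold (adjusted p = 0.0817), although 5 of 6 infarcted arrays were above the highest sham array. Its value with the mean over probesets was 0.30 (adjusted p = 0.0207), and without infarcted replicate 4 it was 0.22 (adjusted p = 0.041). The difference of Csf2ra was 0.66 below that of Csf2rb (exact permutation test, adjusted over 69 pairs p = 0.00996). Mouse Csf2rb has a near-identical neighbour, Csf2rb2, an IL-3 receptor chain, so that probesets may read both, and their separate values are uncertain. Csf2rb2 rose by 1.73 (adjusted p = 5.34e-06). It was the single gene to pass among 10 other growth factors and receptors of myeloid cells, whose median difference was 0.08. Among all genes 20.3% passed in either direction.

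These comparisons of one member's change with another's covered all 69 pairs of members with the same role, of which 34 had an adjusted p under 0.05. The smallest p that the 924 ways of splitting the arrays can give is 0.00217 before adjustment. The 9 pairs given in the text were chosen after their values had been seen.

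Both transcription factors rose. Spi1, which encodes PU.1, a factor required for myeloid cells, ranged from 7.10 to 7.37 in sham hearts (median 7.16) and from 7.56 to 7.998 in infarcted hearts (median 7.84). The groups did not overlap, and Spi1 rose 1.54-fold (95% interval 1.36 to 1.75, adjusted p = 0.000134). All 4 of its probesets rose as well. Maf, which encodes c-Maf, a factor of mature macrophages that other cells also use, rose by 0.30 (1.23-fold, adjusted p = 0.0344) with overlapping groups. Neither of its 2 probesets passed in the limma fit of single probesets (adjusted p = 0.11 and 0.131). The call for Maf ended when sham replicate 1, 3, 4 or 6 or infarcted replicate 3, 5 or 6 was left out (adjusted p up to 0.0773), and when each array was set to the same median (adjusted p = 0.0596). It also ended with quantile normalization (adjusted p = 0.056) and without infarcted replicates 4 and 5 together (adjusted p = 0.0927). Of 12 other transcription factors of myeloid cells Runx1 rose by 2.06 and Tfec by 0.75, none fell, and the list's median difference was 0.05. Among all genes 10.1% were called higher and 10.2% lower. Runx1, a factor of blood formation, was thus more than 4-fold higher (fold 4.17, adjusted p = 4.43e-08). Which cells of the tissue carried the Runx1 signal was not tested.

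Of the 6 Fc receptors and adaptors 5 rose. Tyrobp, the adaptor also called DAP12, through which several activating myeloid receptors signal, ranged from 7.48 to 8.22 in sham hearts (median 7.99) and from 8.85 to 9.11 in infarcted hearts (median 9.09). Infarcted arrays were all higher, and Tyrobp rose 2.11-fold (95% interval 1.78 to 2.50, adjusted p = 1.6e-05). Fcer1g, the common gamma chain of activating Fc receptors, ranged from 7.91 to 8.64 and then from 8.88 to 9.33, and it rose 1.72-fold (adjusted p = 0.00093).

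Fcgr4, an activating receptor for IgG, had the largest difference of the 6 as the median over all its probesets. Its sham arrays ranged from 4.06 to 5.27 (median 4.66) and its infarcted arrays from 5.79 to 6.43 (median 6.05). The groups did not overlap, and it rose 2.75-fold (95% interval 2.16 to 3.50, adjusted p = 2.5e-05). All 4 of its probesets rose, by 0.61 to 1.90. With dim probesets left out only its brightest probeset remained, which had the smallest rise, and the gene's difference was 0.61 (adjusted p = 0.00647). Fcgr2b, the inhibitory IgG receptor, ranged from 7.53 to 7.90 and from 8.21 to 8.66, and rose 1.58-fold (adjusted p = 0.000134). The rise of Fcgr2b was 0.80 smaller than that of Fcgr4 (exact permutation test, adjusted over 69 pairs p = 0.0142). With dim probesets left out, and Fcgr4 thus read from its brightest probeset only, the rise of Fcgr2b was 0.19 larger and the pair did not pass (adjusted p = 0.565).

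Fcgr3, another activating IgG receptor, rose by 0.45 (1.37-fold, adjusted p = 0.0169), with 4 of 6 infarcted arrays above all sham arrays. Without infarcted replicates 4 and 5 its difference was 0.40 and did not pass (adjusted p = 0.0792). Fcgr1, the high-affinity IgG receptor, ranged from 5.46 to 6.36 and from 5.70 to 6.63. Its difference was 0.26, short of the threshold (adjusted p = 0.388). With dim probesets left out its difference was 0.62 (adjusted p = 0.0003), and with the mean over probesets 0.40 (adjusted p = 0.0228). The low-affinity IgG receptors resemble each other in sequence, and how far probesets read more than one of them was not tested.

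Of 20 measured genes of a list on signalling around Fc receptors and Tyrobp 14 rose and none fell. Their median difference was 0.49, and over all genes 10.1% were called higher. The list holds surface receptors, such as Trem2, Sirpb1a and Cd300a, beside the signalling steps. Pik3ap1, an adaptor of PI3 kinase, rose by 0.75, Vav1, a signalling protein of blood cells, by 0.82 and Sirpb1a, a receptor that signals through Tyrobp, by 0.70. Of 5 subunits of the phagocyte NADPH oxidase, which makes superoxide, 2 rose. They were Cybb, the catalytic subunit (1.09, adjusted p = 0.000361), and Ncf4, a cytosolic subunit (0.67, adjusted p = 0.00351).

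Among the 7 leukocyte surface, integrin and cytoskeletal genes 5 rose, all 5 without overlap. Ptprc, which encodes the leukocyte phosphatase CD45, ranged from 6.16 to 6.95 in sham hearts (median 6.70) and from 7.18 to 7.57 in infarcted hearts (median 7.43), and rose 1.67-fold (adjusted p = 0.000506). Of its 33 probesets 17 rose. The 2 brightest did not follow, with differences of 0.01 and -0.03. Laptm5, a lysosomal membrane protein of blood cells, ranged from 8.62 to 9.34 and from 9.50 to 10.1, and rose 1.68-fold (adjusted p = 0.00184), with 10 of 12 probesets higher.

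The beta 2 integrins pair the chain Itgb2 with one of several alpha chains. Itgb2 itself ranged from 6.44 to 7.07 (median 6.77) and from 7.23 to 7.87 (median 7.59), and rose 1.74-fold (adjusted p = 0.000217). Itgam, the alpha chain of the complement receptor Mac-1, ranged from 6.23 to 6.81 (median 6.45) and from 7.24 to 7.46 (median 7.31). The infarcted arrays lay close together and above all sham arrays, and Itgam rose 1.75-fold (95% interval 1.53 to 2.01, adjusted p = 2.8e-05). Its 32 probesets included 16 that rose, and the brightest differed by 0.07 (adjusted p = 0.70). Itgax, which encodes the alpha chain CD11c, ranged from 4.53 to 5.38 (median 4.99) and from 5.49 to 6.63 (median 6.02), and rose 2.07-fold (adjusted p = 0.000614). Of its 28 probesets 7 rose, and the brightest differed by 0.25 (adjusted p = 0.305).

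Itgal, the alpha chain of LFA-1, which lymphocytes also carry, did not pass. It ranged from 5.41 to 6.29 in sham hearts and from 5.92 to 6.21 in infarcted hearts, within the sham range, with a difference of 0.11 (95% interval -0.16 to 0.39, adjusted p = 0.60). Of its 32 probesets 1 rose, and with the mean over probesets the difference was 0.24 (adjusted p = 0.0498). The rise of Itgam was 0.69 larger than the difference of Itgal (exact permutation test, adjusted over 69 pairs p = 0.00996), but 0.33 with dim probesets left out (adjusted p = 0.208). Aif1, the actin-binding protein Iba1, differed by 0.40, short of the threshold (adjusted p = 0.0844). Without sham replicate 1 Aif1 differed by 0.50 (adjusted p = 0.0243), and with dim probesets left out by 0.14 (adjusted p = 0.446). Of 5 ligands of leukocyte integrins 3 rose, Thy1 by 0.83, Icam1 by 0.69 and Vcam1 by 0.67.

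**Figure D2:**
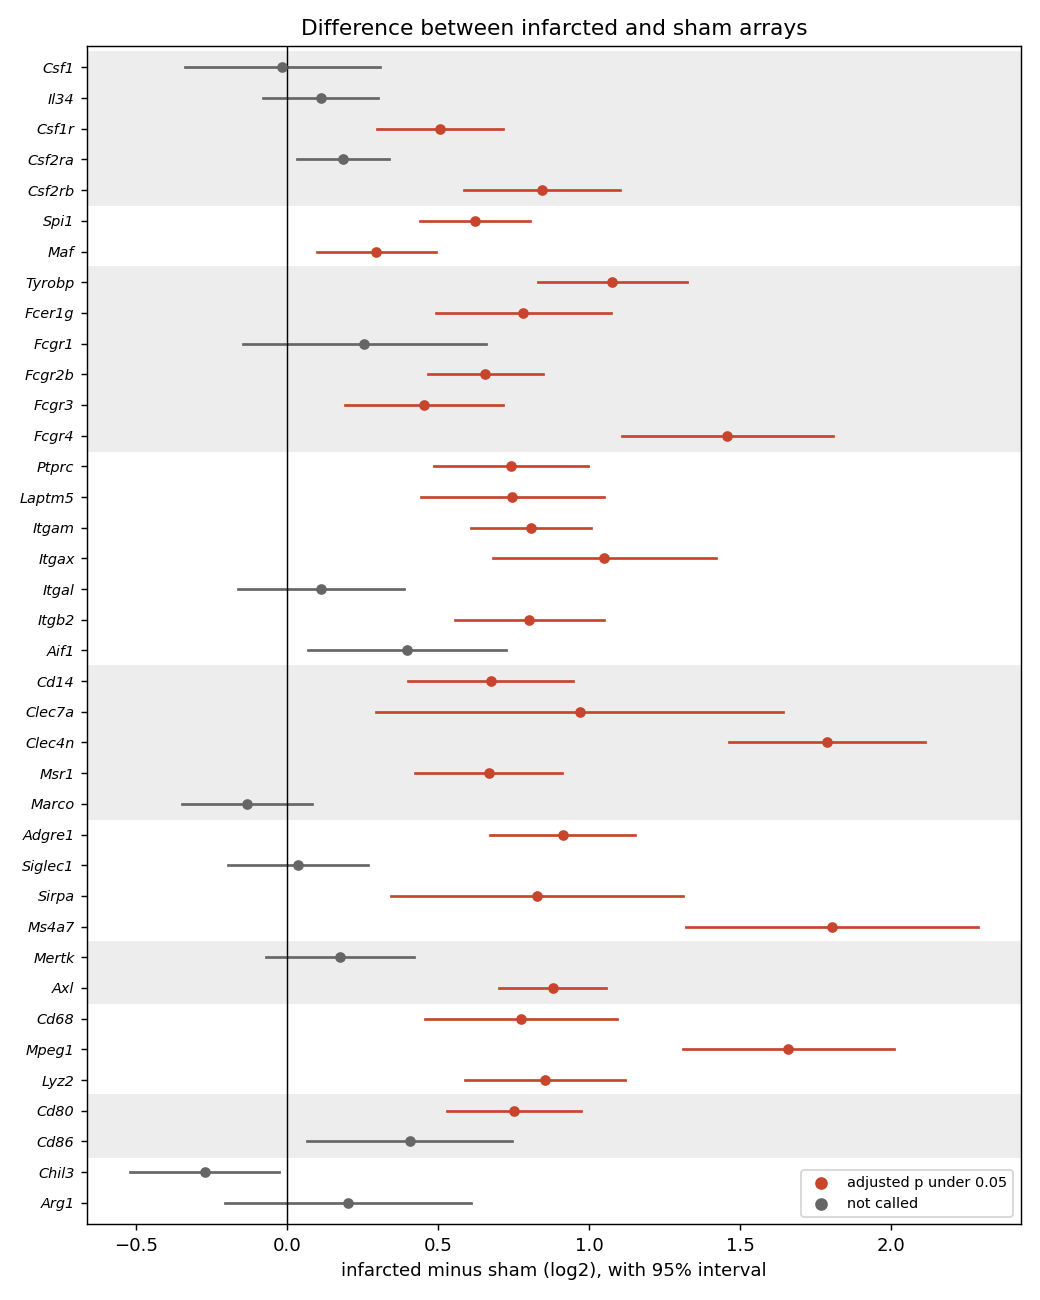
Difference between infarcted and sham arrays (log2) of each of the 38 genes with its 95% interval from limma, in order of role. Colour marks the 26 genes that passed the threshold, and Ms4a7 (1.80), Clec4n (1.79) and Mpeg1 (1.66) lie farthest to the right.

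Of the 5 pattern recognition and scavenger receptors 4 rose. Clec4n, a lectin also called dectin-2 that signals through Fcer1g, ranged from 4.38 to 4.98 in sham hearts (median 4.74) and from 5.86 to 6.86 in infarcted hearts (median 6.55). Every infarcted array was higher, and Clec4n rose 3.46-fold (95% interval 2.76 to 4.32, adjusted p = 2e-06). All 8 of its probesets rose, by 0.83 to 2.20.

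Cd14, a co-receptor for bacterial lipopolysaccharide, ranged from 6.02 to 6.74 and from 6.78 to 7.38, and rose 1.60-fold (adjusted p = 0.00185). Msr1, the class A scavenger receptor, ranged from 6.14 to 6.87 and from 7.11 to 7.45, and rose 1.59-fold (adjusted p = 0.000811). Marco, a relative of Msr1, ranged from 4.89 to 5.42 and from 4.85 to 5.32. Its difference was -0.13 (adjusted p = 0.412), and none of its 18 probesets rose. The difference of Msr1 was 0.80 above that of Marco (exact permutation test, adjusted over 69 pairs p = 0.00996).

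Clec7a, the beta-glucan receptor dectin-1, varied widely within groups, from 5.02 to 6.58 in sham hearts (median 5.52) and from 5.55 to 7.27 in infarcted hearts (median 6.69). It rose by 0.97 with overlapping groups (adjusted p = 0.0424). The call ended when sham replicate 1, 2, 3, 4 or 6 or infarcted replicate 1, 3, 5 or 6 was left out (adjusted p up to 0.0958), and with dim probesets left out the difference was 0.53 (adjusted p = 0.0421).

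Of the 4 surface regulators and adhesion receptors of macrophages 3 rose. Ms4a7, a membrane-spanning protein of macrophages, ranged from 5.33 to 6.98 in sham hearts (median 6.15) and from 7.33 to 8.47 in infarcted hearts (median 7.96). The groups did not overlap, and it rose 3.49-fold (95% interval 2.50 to 4.88, adjusted p = 6.4e-05), with 8 of 9 probesets higher. It ranked 60 among all genes by the size of the rise, with Clec4n at 63, Mpeg1 at 79 and Fcgr4 at 110.

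Adgre1, which encodes an adhesion receptor widely used as a macrophage marker, ranged from 7.61 to 8.21 (median 7.75) and from 8.49 to 9.05 (median 8.71). It rose 1.88-fold (95% interval 1.60 to 2.22, adjusted p = 5.4e-05), with all 24 probesets positive and 16 called higher. Siglec1, the sialic acid receptor CD169 of some tissue macrophages, ranged from 6.47 to 7.16 and from 6.54 to 7.04, within the sham range, and differed by 0.04 (95% interval -0.20 to 0.27, adjusted p = 0.859). The rise of Adgre1 was 0.88 larger than the difference of Siglec1 (exact permutation test, adjusted over 69 pairs p = 0.00996).

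Sirpa, the inhibitory receptor for Cd47 that restrains phagocytosis, ranged from 8.55 to 9.91 and from 9.27 to 10.5. In 5 of 6 infarcted hearts it was above all sham hearts, and it rose by 0.83 (adjusted p = 0.0182). With the mean over its 11 probesets the difference was 0.44 (adjusted p = 0.00164). Without infarcted replicates 4 and 5 its difference was 0.73 and the call ended (adjusted p = 0.086). Of 6 ligands of Sirpa and of the costimulatory pathway, Cd47 differed by 0.19, short of the threshold (adjusted p = 0.111). It is named because it binds Sirpa and was chosen after its value was seen.

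The clearance receptors Mertk and Axl are related kinases that recognise dying cells through bridging proteins such as Gas6. Axl ranged from 9.29 to 9.55 in sham hearts (median 9.36) and from 10.04 to 10.45 in infarcted hearts (median 10.3). The groups lay far apart for their spread, and Axl rose 1.84-fold (95% interval 1.63 to 2.08, adjusted p = 5e-06), with 18 of 23 probesets higher. Mertk ranged from 7.53 to 8.09 (median 7.83) and from 7.62 to 8.23 (median 8.01), with overlap, and differed by 0.18 (95% interval -0.07 to 0.42, adjusted p = 0.319). None of its 19 probesets passed, although all 19 differences were positive, and with the mean over probesets Mertk differed by 0.29 (adjusted p = 0.0216). The difference of Mertk was 0.70 below that of Axl (exact permutation test, adjusted over 69 pairs p = 0.0142), and 0.31 below with the mean over probesets (adjusted p = 0.0341).

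Of 17 bridging and clearance partners 10 rose and none fell, with a median difference of 0.43. Lrp1, an endocytic receptor for many ligands, rose by 1.001, Itgb5, an integrin chain that binds Mfge8, by 0.94 and Pros1, which encodes protein S, by 0.53. Gas6, named here because it binds Axl and Mertk and chosen after its value was seen, rose by 0.47 (adjusted p = 0.00107).

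The 3 lysosomal and killing proteins all rose without overlap. Mpeg1, the pore-forming protein perforin-2, ranged from 6.30 to 6.78 in sham hearts (median 6.61) and from 7.71 to 8.84 in infarcted hearts (median 8.22), and rose 3.16-fold (95% interval 2.48 to 4.02, adjusted p = 7e-06). Its value rests on 1 probeset. Cd68, a lysosomal glycoprotein used as a macrophage marker, ranged from 7.27 to 8.17 (median 7.99) and from 8.41 to 8.94 (median 8.63), and rose 1.71-fold (adjusted p = 0.00194), with all 8 probesets higher. The rise of Cd68 was 0.89 smaller than that of Mpeg1 (exact permutation test, adjusted over 69 pairs p = 0.00996).

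Lyz2, the lysozyme of myeloid cells, ranged from 9.69 to 10.1 (median 9.88) and from 10.2 to 11.0 (median 10.8). It rose 1.81-fold (95% interval 1.5 to 2.17, adjusted p = 0.00023), and its 3 probesets rose by 0.77 to 0.89. The mouse has a close copy, Lyz1, and reads of it by these probesets were not tested.

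Of the costimulatory ligands for T cells Cd80 rose and Cd86 did not pass. Cd80 ranged from 5.57 to 5.83 in sham hearts (median 5.69) and from 6.01 to 6.75 in infarcted hearts (median 6.46), and rose 1.68-fold (adjusted p = 0.000151). Its difference was 1.23 with dim probesets left out. Cd86 ranged from 5.22 to 6.07 and from 5.80 to 6.54 and differed by 0.41 (adjusted p = 0.0876). With the mean over probesets its difference was 0.50 (adjusted p = 0.00106), and with dim probesets left out 0.52 (adjusted p = 0.00471). The difference of Cd80 was 0.35 above that of Cd86, which did not pass (exact permutation test, adjusted over 69 pairs p = 0.24), and with dim probesets left out it was 0.71 above (adjusted p = 0.0315). Cd28 and Ctla4, which encode receptors for both ligands, fell by 0.81 (adjusted p = 0.000897) and 0.72 (adjusted p = 0.0105). Cd28 and Ctla4 were the only 2 of the 6 ligands and receptors of this list to pass. Of 11 T and NK cell markers none passed, and their sham means lay between 3.74 and 6.10. The sham mean of Cd28 was above that range, and that of Ctla4 was within it. Which cells of the tissue carried the Cd28 and Ctla4 signals was not tested.

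Neither gene of alternative activation passed. Chil3, the chitinase-like protein Ym1, ranged from 3.50 to 4.28 in sham hearts and from 3.40 to 3.82 in infarcted hearts, with a difference of -0.27 (adjusted p = 0.117). Without sham replicate 2 it was -0.36 (adjusted p = 0.0249), the only fit with 1 array left out in which a member fell. Arg1, arginase 1, ranged from 4.20 to 5.28 and from 4.30 to 5.33 and differed by 0.20 (adjusted p = 0.514). Chil3 also has close relatives in the mouse genome, and how far they share its probesets was not tested.

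Some members had signal near the dim end of the arrays. The 30th percentile of all gene means was 5.26, and 7 members had a sham mean below it. Of these Fcgr4, Itgax and Clec4n rose, and Aif1, Marco, Chil3 and Arg1 did not pass.

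Over the 468 probesets of the members, 189 (40.4%) rose and none fell, against 6.39% called higher and 4.3% called lower of all 241576 probesets. A positive difference was found in 399 of them, and 30 members had at least 1 probeset that rose. A member had between 1 and 33 probesets, with a median of 9. Probesets of a gene share its RNA and are not replicates.

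**Figure D3:**
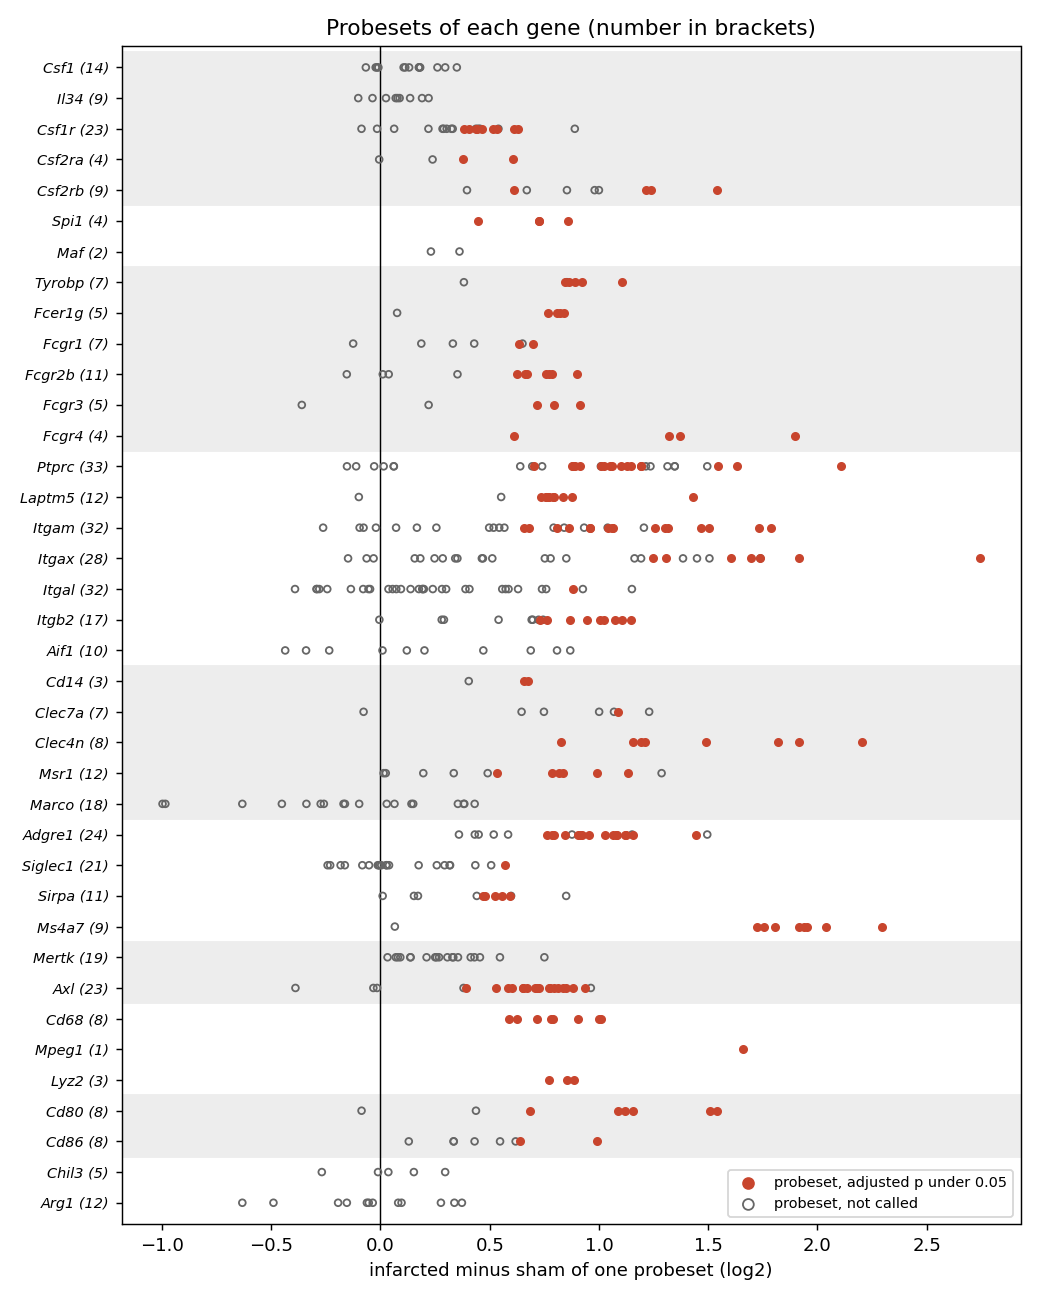
Difference between infarcted and sham arrays (log2) of each probeset of the 38 genes, 1 point per probeset, with the number of probesets in brackets and colour for those that passed over all probesets. All 24 points of Adgre1 and all 19 of Mertk lie to the right of 0, but 16 and 0 of them passed.

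The infarcted hearts differed in how far the members were raised. The mean deviation of the 38 genes from their sham means lay between -0.14 and 0.15 on the sham arrays. On infarcted replicates 1 to 6 it was 0.59, 0.46, 0.81, 0.63, 0.75 and 0.69. Replicate 3 was the highest infarcted array for 13 members and replicate 2 the lowest for 16, among them Ms4a7, Clec4n, Mpeg1, Lyz2 and Itgax. The lowest infarcted value still stood apart from the highest sham value, 0.15.

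Markers of other cells moved with the members to differing degrees. Of 9 fibroblast markers 8 rose, with a mean deviation of 1.33 to 1.78 on the infarcted arrays and -0.19 to 0.16 on the sham arrays, and a summed signal (log2 of the sum) of 14.3 to 14.6 against 13.2 to 13.3. Of 12 neutrophil and 11 T and NK cell markers none passed, with sham means between 3.74 and 5.86 and between 3.74 and 6.10. The mean deviation of the neutrophil markers was -0.28 to 0.49 on sham and 0.02 to 0.43 on infarcted arrays, and their summed signal 8.18 to 9.03 and 8.39 to 9.07. For the T and NK cell markers the deviations were -0.26 to 0.20 and -0.19 to 0.32, and the summed signals 8.45 to 8.95 and 8.52 to 9.02. Of 6 B cell, 7 mast cell and 7 dendritic cell markers 1 each rose, Cd79b (0.54), Kit (0.70) and Cd209a (0.83). Over all genes 10.1% were called higher. Differences were positive in 5 of the 6 B cell, 2 of the 7 mast cell and 6 of the 7 dendritic cell markers. The median differences of these lists were 0.42, -0.01 and 0.13.

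Of 8 endothelial and 8 cardiomyocyte markers none passed. The mean deviation of the endothelial markers was -0.11 to 0.15 on sham and -0.01 to 0.22 on infarcted arrays. For the cardiomyocyte markers it was -0.04 to 0.02 on sham and -0.17 to -0.07 on infarcted arrays, with no overlap, and 1 of the 8 differences was positive. Of 4 atrial markers Nppa rose, which ventricular cardiomyocytes also make under load, and all 4 differences were positive. The list's mean deviation was 0.20 to 0.24 on infarcted replicates 1 to 3 and 2.61, 1.64 and 1.30 on replicates 4, 5 and 6. Infarcted replicate 5 also had the highest deviation of 6 adipocyte markers, at 1.76. Without infarcted replicates 4 and 5, 23 members rose in place of 26, and 3123 genes were called in place of 4124. That fit kept replicate 6, with its atrial deviation of 1.30. The 3 members that no longer passed differed by 0.27 (Maf, 0.30 with all arrays), 0.40 (Fcgr3, 0.45) and 0.73 (Sirpa, 0.83). The part of these markers in the members' differences was not tested.

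**Figure D4:**
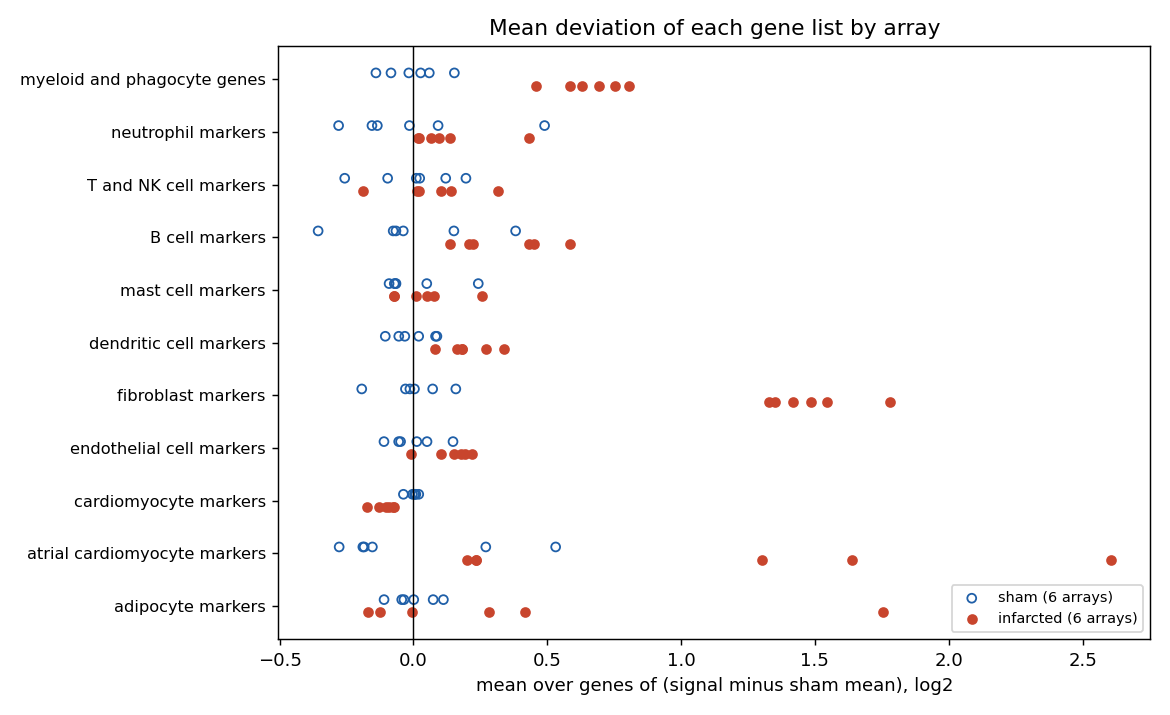
Mean over the genes of each list of the signal minus the gene's sham mean (log2), 1 point per array. The member list lies between 0.46 and 0.81 on the infarcted arrays, and the fibroblast markers lie between 1.33 and 1.78.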

How the data were processed

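Total RNA of 12 hearts was labelled with biotin and read on one-colour arrays, 6 per group. The deposited values were read as log2, since they run from 1.52 to 14.4. No source states the base, and all folds rest on that reading. Affymetrix Power Tools is the tool in the submitters' processing notes, which give no version. How signals were background-corrected, normalized and summarised is not given in the sources used here. Array medians lay between 7.00 and 7.06, so that a shift of all genes in 1 direction would not be seen. They were 7.00 to 7.03 on sham and 7.04 to 7.06 on infarcted arrays, without overlap. Correlations between arrays were 0.956 to 0.979, and no 2 arrays were identical. The number of arrays limits the precision. The limma p-values weigh a group difference against the spread between arrays within the groups, as moderated over all genes or probesets.

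Of 241576 probesets 212097 had 1 gene symbol, 4475 several and 25004 none, and only the first were used for gene values. The fit of single probesets, with its adjustment and shares called, covered all 241576. RefSeq synonyms renewed 2742 of the 20416 symbols, 53 older ones were kept, and 20352 genes resulted. A gene's value was the median over its probesets. No filter on dim signal was used. The test was lmFit and eBayes of limma 3.58.1 under R 4.3.3 (two-sided, Benjamini-Hochberg over all genes or all probesets, threshold 0.05, no covariates). The fit was tested on simulated data. Dim probesets and dim genes in the alternatives are those under the 30th percentile.

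The members, gene lists and alternatives were chosen with earlier results of these data known. All members are named. From each other list of pathway genes up to 3 genes with the smallest p are named, if called, and Gas6 and Cd47 were added after their values were seen. For the lists of cell markers counts and ranges are given, and a called gene is named where no other gene of its list was called. Some genes of those lists are not analysed here. The comparison of changes between pairs of members was added after member values had been seen. It was tried on 8 hand-picked pairs and then widened to all 69 pairs of the same role. The 9 pairs named were chosen after their values had been seen.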

Additional observations from a re-analysis of the deposited data

Results flagged for a closer look

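Csf2ra had a sham array apart from the others. Sham replicate 2 was at 8.20 (log2), the next sham array was at 8.29, and the highest at 8.33. The gap was 0.723 of the group's range, above Dixon's 95% critical value for 6 samples. The whole range is small, and 76 groups were examined, of which chance flags about 1 in 20.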

How the results depend on the processing

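Over 20 alternative settings, 22 of the 26 members that rose kept their call wherever they were measured, and the exceptions were Maf, Clec7a, Fcgr3 and Sirpa. The number of members that rose was 31 with the mean over probesets, 28 of 37 with dim probesets left out, 26 of 34 with dim genes left out, 25 with centred arrays or quantile normalization, and 24 to 27 with 1 array left out. The genes called lay between 3454 and 4138 with 1 array left out, against 4124. Centring moved the split of all genes called from 2050 higher and 2074 lower to 1748 and 2956, with a median difference of -0.08. Replicate numbers did not pair the hearts (correlation of deviations between -0.05 and 0.10). With the number as a replicate block 26 members rose and 3802 genes were called. Members that fell numbered 0 to 1 with 1 array left out. Probesets of members that fell numbered 0, but 3 with centred arrays, 2 with quantile normalization, 1 without infarcted replicates 4 and 5, 3 with dim probesets left out and 0 to 2 with 1 array left out.

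The differences of 4 members, which did not pass in either setting, changed sign. Csf1 was 0.13 with the mean over probesets, 0.13 with dim probesets left out, 0.073 without infarcted replicates 4 and 5, and -0.086 to 0.065 with 1 array left out. Siglec1 was -0.0081 with centred arrays, -0.0094 with quantile normalization, -0.044 without replicates 4 and 5, and -0.030 to 0.108 with 1 array left out. Chil3 was 0.041 with the mean over probesets, and Arg1 -0.038 with the mean and -0.26 with dim probesets left out. The difference of Fcgr2b less that of Fcgr4 passed at -0.80 but was 0.19 with dim probesets left out and did not pass. In that setting Fcgr4 was read from its brightest probeset only. The causes were not tested. Aif1, Marco, Chil3 and Arg1 had dim signal, as had Fcgr4, Itgax and Clec4n, which rose. The part of dim signal in these outcomes was not tested.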
